A study of Mus musculus with 52 samples.

Results

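T cell receptor genes made up 113 of the 27525 genes measured in subcutaneous KPC tumors, and comprised every row that the deposited annotation classed as a receptor variable (V) or constant (C) gene. They included 76 alpha V genes (Trav), 19 beta V genes (Trbv), 7 gamma V genes (Trgv), 3 delta V genes (Trdv) and 8 constant genes. Bulk RNA-seq of poly(A) RNA was carried out on 32 individual tumors, 8 in each of 4 groups. The tumors grew in male C57BL/6NHsd mice aged 8 to 10 weeks from KPC cells, a pancreatic adenocarcinoma line from genetically engineered mice that carry Trp53 LSL.R172H/+ and Pdx1-Cre. Thus all 4 groups carried the same tumor cells under the skin rather than in the pancreas. Mice were left untreated, received 1 intratumoral injection of 2 µg of ADU-S100, an agonist of the innate DNA-sensing adaptor STING, were given 100 µg of 4H8, an antibody that activates LTβR, into the peritoneum 4 times (anti-LTβR), or were given both (combination therapy). All tumors were resected on day 14. The comparisons ask how each agonist, and the pair, changed the T cell receptor transcripts in the tumor.

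A T cell receptor is a pair of chains, alpha with beta on conventional T cells and gamma with delta on a smaller lineage that is common in skin and mucosa. Each chain joins a V gene to a constant gene by DNA recombination in the developing T cell, and daughter cells inherit the joined gene. The constant genes therefore report T cell transcripts of a lineage as a whole, whereas the V genes divide them by receptor usage, so that a V gene with a large share can reflect many clones or a few.

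The receptor genes lay on 3 chromosomes of GRCm38. Trac and Trdc are on chromosome 14 with the Trav and Trdv genes, Trbc1 and Trbc2 on chromosome 6 with the Trbv genes, and the Trgc and Trgv genes on chromosome 13. Several are near-identical copies, which limits how far reads can be assigned to a gene. The following coding-exon stretches are from the GENCODE annotation of GRCm38, all on the plus strand, and were chosen because the results below turn on these genes. The first pair is 300 bases of the V exon of Trav14d-3-dv8 (chr14:53078737-53079036), the most abundant V gene, and of Trav14-3 (chr14:53763386-53763685), the most similar Trav14 gene, with the 8 bases that differ in capitals.
Trav14d-3-dv8: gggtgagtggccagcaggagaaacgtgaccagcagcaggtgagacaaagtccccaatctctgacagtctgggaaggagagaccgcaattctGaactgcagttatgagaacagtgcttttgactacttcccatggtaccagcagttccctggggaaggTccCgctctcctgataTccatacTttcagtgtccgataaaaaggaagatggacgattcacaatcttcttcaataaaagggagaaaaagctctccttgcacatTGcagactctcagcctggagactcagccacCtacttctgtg
Trav14-3: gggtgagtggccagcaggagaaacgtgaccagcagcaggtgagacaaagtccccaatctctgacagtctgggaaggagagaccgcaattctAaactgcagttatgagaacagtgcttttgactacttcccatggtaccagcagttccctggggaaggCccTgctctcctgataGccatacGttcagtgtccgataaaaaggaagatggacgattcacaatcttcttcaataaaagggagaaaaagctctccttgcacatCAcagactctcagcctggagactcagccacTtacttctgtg
Over the whole coding sequence these genes shared 97.23% of 361 aligned bases, and the other Trav14 genes shared 92.86% to 96.68% with Trav14d-3-dv8. The beta constant genes were as close, and the coding sequences of Trbc1 and Trbc2 shared 95.56% of bases. Trgc1, Trgc2 and Trgc3 shared 93.99% to 96.71% between pairs, and Trgc4 was more distant from Trgc1, at 69.95%. The second set shows the gamma V gene Trgv6 (300 bases, chr13:19190621-19190920) and the delta V gene Trdv4 (299 bases, chr14:54075217-54075515), which encode the Vγ6 and Vδ1 chains, known as partners on interleukin-17-producing γδ T cells of tissues.
Trgv6: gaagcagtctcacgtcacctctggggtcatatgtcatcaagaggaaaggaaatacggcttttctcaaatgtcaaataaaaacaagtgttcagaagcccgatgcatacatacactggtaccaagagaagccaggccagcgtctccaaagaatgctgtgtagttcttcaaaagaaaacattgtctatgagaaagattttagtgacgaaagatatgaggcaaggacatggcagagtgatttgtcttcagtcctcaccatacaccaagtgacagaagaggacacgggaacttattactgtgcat
Trdv4: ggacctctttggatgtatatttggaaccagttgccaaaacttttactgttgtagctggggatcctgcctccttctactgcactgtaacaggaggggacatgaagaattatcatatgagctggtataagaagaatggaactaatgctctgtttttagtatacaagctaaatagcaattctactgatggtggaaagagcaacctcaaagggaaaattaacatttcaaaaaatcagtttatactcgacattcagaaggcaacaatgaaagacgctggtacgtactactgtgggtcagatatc

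Values are normalized counts, meaning reads per gene divided by a size factor for the library. Whole reads recovered per library ran from 12762453 to 15591986. The 113 receptor genes held 0.00497% of all normalized counts, and 60 of them averaged below 1 per tumor. None was below 1 in every tumor. Of the Trav genes, 22 had the same value as another Trav gene in every tumor, and 20 of these had a coding sequence identical to another gene, such as Trav9d-3 and Trav9n-3, so that these values cannot be told apart by gene. Per kilobase of exon, the highest mean levels over the 32 tumors were those of Trac (215 normalized counts per kb), Trbc2 (179) and Trbc1 (130), followed by Trav14d-3-dv8 (80.4) and Trbv15 (64.6). The γδ constant genes were lower, at 30.3 for Trgc2, 18.4 for Trgc1 and 9.57 for Trdc. Trgc3 was nearly absent and was at 0 in all 8 untreated tumors. The labelled tumor origin was checked with the epithelial genes Krt8, Krt18, Krt19 and Epcam, whose summed counts ranged from 6703 to 28517 per tumor and were present in all 32. Summed epidermal keratins (Krt1, Krt5, Krt10 and Krt14), which mark skin, differed far more between tumors, from 1081 to 53108.

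The summed constant genes were highest in combination tumors, and all 8 of these exceeded every untreated tumor. In untreated tumors the lowest, median and highest sums were 320, 373 and 543 normalized counts. ADU-S100 tumors gave 310, 377 and 490, and anti-LTβR tumors 431, 524 and 606. Combination tumors gave 595, 734 and 932. Therefore the combination and untreated groups did not overlap, 4 of 8 anti-LTβR tumors lay above every untreated tumor, and no ADU-S100 tumor did. The ratio of the group mean to the untreated mean (401 ± 82.9, SD, n = 8) was 0.955 after ADU-S100, 1.30 after anti-LTβR and 1.85 after both agents. The sums follow from the same genes that are tested below and were given no test of their own. In bulk tumor RNA, more T cells and more receptor RNA per T cell cannot be told apart.

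Summed V gene counts were also highest in combination tumors for the Trbv genes. The untreated mean was 114 ± 40.5, and ADU-S100 treatment gave 119 ± 34.1. After anti-LTβR it was 160 ± 34.7, and after combination therapy 212 ± 55.1 (SD, n = 8 each), which is 1.86 times the untreated mean. Of the 8 combination tumors, 7 lay above every untreated tumor. Summed Trav counts had means of 76.2 ± 30.1, 95.2 ± 19.2, 133 ± 17.2 and 136 ± 33.2 in the same order. Thus the Trav sum was 1.74 times the untreated mean with anti-LTβR and 1.78 times with combination therapy, with overlap between these groups and untreated tumors. Without Trav14d-3-dv8 these ratios were 1.16 and 1.39, and that with ADU-S100 went from 1.25 to 0.892. Summed γδ V genes (Trgv and Trdv) had means of 21.9 ± 8.07 without treatment, 18.8 ± 8.15 after ADU-S100, 27.3 ± 6.11 after anti-LTβR and 41.6 ± 10.6 after both agents, and all 8 combination tumors lay above every untreated tumor. Without Trgv2 the ratio to the untreated mean with anti-LTβR went from 1.24 to 0.825, and that with combination therapy was 2.03.

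**Figure D1:**
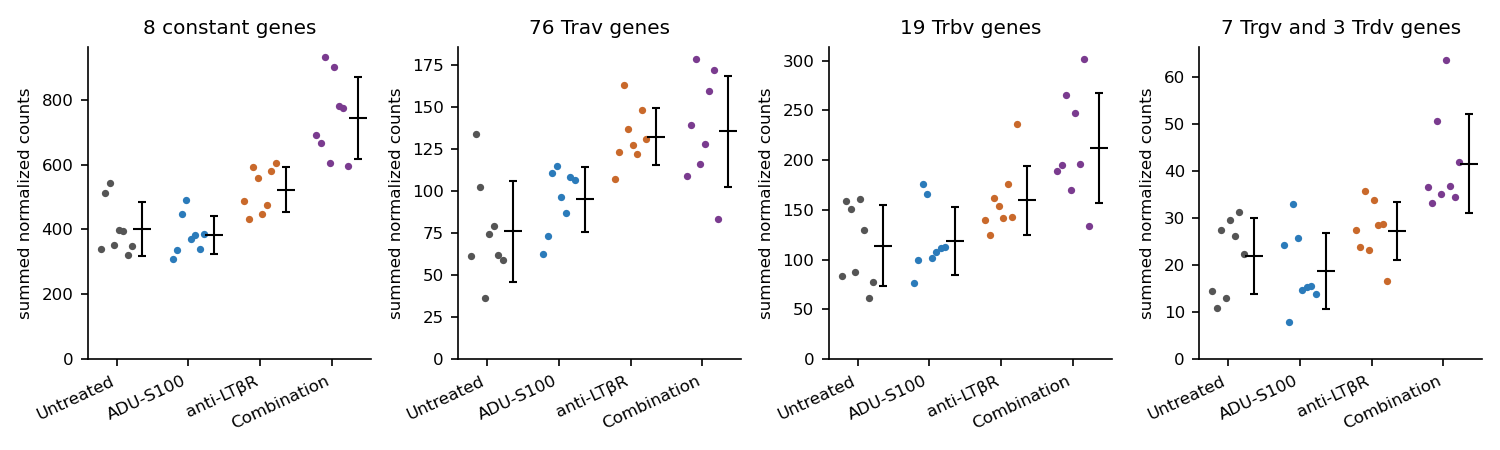
Summed normalized counts of the receptor constant genes, Trav genes, Trbv genes and γδ V genes (y axes, normalized count) in the 4 treatment groups (x axes), with 1 point per tumor and bars for mean ± SD (n = 8). All 8 combination tumors lie above every untreated tumor for the constant genes and for the γδ V genes, whereas the Trav and Trbv sums overlap.

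Combination therapy raised transcripts of both T cell lineages relative to untreated tumors. Of the 113 receptor genes, 13 passed the filter on low counts, 7 constant and 6 V genes, and 9 of these 13 rose and none fell (limma trend test on log2(normalized count + 1), Benjamini-Hochberg adjusted p below 0.05). Of all 16909 genes tested in this comparison 19.6% rose and 23.6% fell. A gene can pass the filter only through the group in which it is high, so the count does not describe the 100 receptor genes that did not pass. The 9 genes were Trac, Trbc1, Trbc2, Trdc, Trgc1, Trav14d-3-dv8, Trbv13-2, Trbv15 and Trdv4, and 6 of them also changed at least 2-fold (5.16% of all genes tested rose by that much). Without the filter the median log2 change was 0.42 over all 113 receptor genes, beside 0.03 for all 27521 genes, and 14 of the 113 were called, beside 7438 of the 27521. Trbc2 was the gene of the 13 for which every combination tumor lay above every untreated tumor, a pattern shown by 4.64% of genes tested.

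The αβ constant genes led these changes by level. Trac encodes the alpha constant region. Its lowest, median and highest counts were 103, 132 and 228 in untreated tumors and 193, 282 and 369 in combination tumors, and the ranges overlapped between 193 and 228. It rose by a log2 change of 0.93 (SE 0.17, adjusted p = 0.00051, limma). Trbc1 and Trbc2 encode interchangeable beta constant regions. Trbc2 went from 77.9, 105 and 132 in untreated tumors to 138, 174 and 241 in combination tumors, without overlap, and rose by 0.75 on the log2 scale (SE 0.14, limma adjusted p = 0.00058). Trbc1 went from 52.9, 76.1 and 122 to 86.6, 144 and 202, with overlap, and rose by 0.82 (SE 0.19, limma adjusted p = 0.0025). Since their coding sequences are close to identical, the split between them is uncertain. Trbc1 held 43.2% ± 5.53 of the Trbc counts in untreated tumors and 44.6% ± 8.24 in combination tumors (SD, n = 8).

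Of the 4 γδ constant genes tested, Trdc and Trgc1 rose. Trdc, the delta constant gene, had 15.0, 25.9 and 44.5 normalized counts as lowest, median and highest in untreated tumors and 39.7, 63.9 and 115 in combination tumors, a mean 2.52 times that of untreated tumors. Its log2 change was 1.33 (SE 0.25, limma adjusted p = 0.00056), and the ranges overlapped only between 39.7 and 44.5. Trgc1, the gamma constant gene used by Trgv4 to Trgv7, went from 8.86, 13.4 and 20.4 to 19.5, 30.8 and 56.0, with a narrow overlap, and rose by 1.11 (SE 0.22, limma adjusted p = 0.00071). Trgc2, which serves Trgv2, and Trgc4, which serves Trgv1, did not pass the test. Trgc2 ran from 10.5 to 39.7 counts in untreated and from 17.6 to 56.8 in combination tumors, and Trgc4 from 0 to 11.05 and from 1.84 to 22.4. Their log2 differences were 0.67 (SE 0.29, limma adjusted p = 0.072) and 1.08 (SE 0.53, limma adjusted p = 0.11). Trgc2 passed in 3 fits that each left out a tumor (untreated 3, untreated 6 or combination 2), and Trgc4 passed without combination tumor 4 and with all 4 groups in 1 fit. γδ genes held 17.5% ± 4.86 of the summed constant counts in untreated tumors and 19.8% ± 4.10 in combination tumors, so the shares overlapped.

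**Figure D2:**
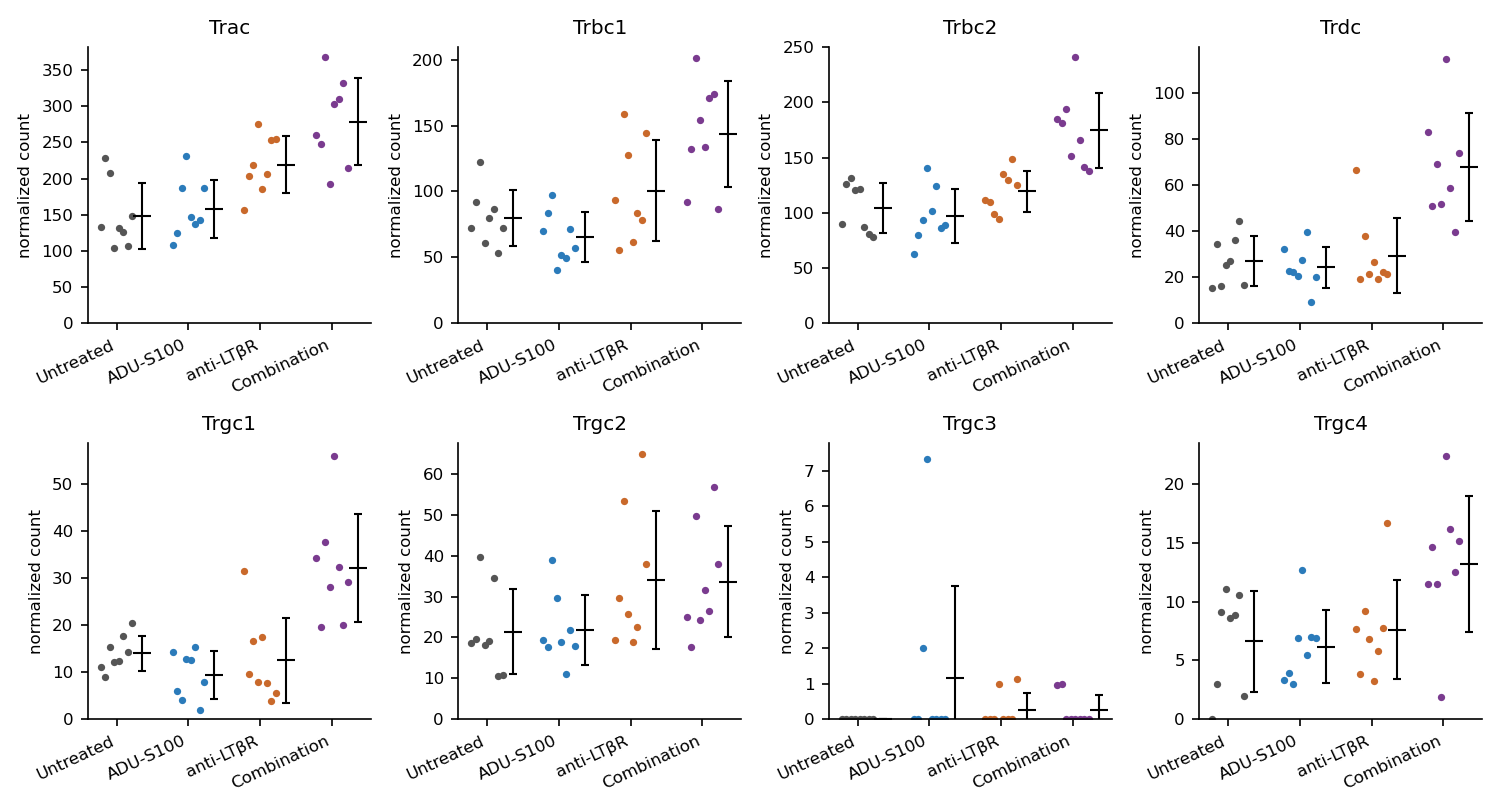
Normalized counts of the 8 receptor constant genes (1 panel each, y axes from 0) in the 4 groups (x axes), with 1 point per tumor and bars for mean ± SD (n = 8, cut off at 0 for Trgc3). All combination tumors lie above every untreated tumor for Trbc2, and the groups overlap for the other genes, with anti-LTβR tumor 1 (66.6 for Trdc and 31.4 for Trgc1) among the combination tumors.

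With ADU-S100 alone no receptor gene passed the test. None of 7 tested receptor genes and none of 16613 genes passed limma (0% called). At an unadjusted p below 0.05, 1 of the 7 passed, and edgeR called 1 gene and DESeq2 57 genes of all those tested, none of them a receptor gene. The gene with the unadjusted signal was Trav14d-3-dv8, with a log2 difference of 1.88 (SE 0.56, limma adjusted p = 0.28). The 6 constant genes tested differed by between -0.69 (Trgc1) and 0.11 (Trac), and the median over all 113 receptor genes without the filter was 0.01, beside -0.01 for all genes.

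Anti-LTβR alone raised 2 of 9 tested receptor genes, Trac and Trav14d-3-dv8 (7.21% of 16691 genes tested rose). Trac ran from 157 through a median of 213 to 275 and overlapped untreated tumors, with a log2 change of 0.60 (SE 0.16, limma adjusted p = 0.024). The Trac call was lost with the replicate number as a block and with only the deeper libraries (those above 14000000 recovered reads, here 7 untreated and 6 anti-LTβR tumors, of 25 in all groups), where the changes were 0.60 and 0.57. The beta and γδ constant genes tested did not pass. Trgc2 had a log2 difference of 0.64 (SE 0.31, limma adjusted p = 0.15), above that of Trac. Trbc1 and Trbc2 had log2 differences of 0.28 and 0.21, Trdc of 0.08, and Trgc1 of -0.37 (limma adjusted p = 0.39, 0.29, 0.86 and 0.45). The median over all 113 receptor genes without the filter was 0.21, beside 0.01 for all genes. Sox13, a marker of γδ type 17 cells, fell by 0.51 on the log2 scale (limma adjusted p = 0.023). Of the markers of other cell types, 1 of 4 B cell, 2 of 3 macrophage and 1 of 2 endothelial genes also rose and 2 of 4 epithelial genes fell with anti-LTβR, and their part in the Trac and Trav14d-3-dv8 results was not tested. Anti-LTβR and ADU-S100 tumors differed at none of 7 receptor genes under limma (6.42% of 16649 genes called; 3 of the 7 at an unadjusted p below 0.05; 1 under DESeq2).

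Trdc, Trgc1 and Trbc2 were higher in combination tumors than in either single-agent group. Relative to anti-LTβR tumors 3 of 13 tested receptor genes rose (11.3% of 16932 genes tested rose), namely Trdc by 1.25 (SE 0.26), Trgc1 by 1.48 (SE 0.34) and Trbc2 by 0.54 (SE 0.12) on the log2 scale, with limma adjusted p-values of 0.0030, 0.0056 and 0.0045. Trac and Trbc1 did not pass, with log2 differences of 0.34 and 0.55 (limma adjusted p = 0.084 and 0.091), nor did Trgc2 and Trgc4, with 0.03 and 0.67 (limma adjusted p = 0.96 and 0.20). Trac passed under DESeq2 and without combination tumor 4, Trbc1 without anti-LTβR tumor 3 or combination tumor 8, and Trgc4 without combination tumor 4. Leaving out combination tumor 4 or 8 raised the count from 3 to 5, and Trgc1 lost its call with only the deeper libraries, at 1.31. Relative to ADU-S100 tumors 6 of 12 rose (20.2% of 16811 genes tested rose). They were Trgc1 by 1.80, Trdc by 1.48, Trbv13-2 by 1.22, Trbc1 by 1.13, Trbc2 by 0.86 and Trac by 0.82 (limma adjusted p between 0.00023 and 0.014), and Trbv13-2 lost its call with only the deeper libraries, at 1.14. Markers of other cell types also passed in these comparisons. Against anti-LTβR tumors 3 of 3 fibroblast markers (sums of 45059 to 96008 and, in combination tumors, 97779 to 362276), 2 of 2 endothelial markers (976 to 1274 and 1464 to 1981), 1 of 3 macrophage, 1 of 3 neutrophil and 1 of 3 tested lymph node stroma markers rose, and 3 of 4 epithelial markers fell (12966 to 15939 and 6703 to 13991). Against ADU-S100 tumors all fibroblast, endothelial and macrophage markers tested rose, as did 4 of 4 B cell markers (44.5 to 184 and 141 to 705), 3 of 3 natural killer cell markers (53.2 to 94.9 and 97.5 to 202), 1 of 3 neutrophil and 2 of 3 tested lymph node stroma markers, and 3 of 4 epithelial markers fell. Their part in the receptor gene results was not tested. Trgc4 did not pass against ADU-S100 tumors under limma (0.92, limma adjusted p = 0.053) but passed under edgeR and DESeq2 and without ADU-S100 tumor 5 or combination tumor 4, and Trgc2 (0.59, limma adjusted p = 0.073) passed with the replicate number as a block and without ADU-S100 tumor 3 or combination tumor 2. Every comparison of combination tumors used the same 8 combination tumors, and every comparison with the control used the same 8 untreated tumors, so the comparisons are not independent.

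The interaction of the agents asks whether the effect of 1 agent differed in the presence of the other. Of 17 receptor genes tested across all 32 tumors, 5 had an interaction past the threshold (18.4% of 17649 genes in either direction). It was positive for Trgc1 (2.17, SE 0.48, limma adjusted p = 0.0028), Trdc (1.39, SE 0.39, limma adjusted p = 0.013), Trbc2 (0.65, SE 0.21, limma adjusted p = 0.026) and Trdv4 (1.87, SE 0.65, limma adjusted p = 0.043), on the log2 scale. At Trgc1, for example, the log2 difference made by ADU-S100 was -0.69 without anti-LTβR and 1.48 with it. Trbc1, near-identical to Trbc2, had 0.85 (SE 0.31, limma adjusted p = 0.0502) and passed under DESeq2, with the replicate number as a block and in 9 of 32 fits that each left out a tumor. The interaction was negative for Trav14d-3-dv8 (-2.15, SE 0.76, limma adjusted p = 0.045). Its call was lost in 20 of 32 fits that each left out a tumor, and that of Trdv4 in 19 of 32, whereas those of Trgc1, Trdc and Trbc2 held in all 32. Both calls were also lost with a pseudocount of 0.5 (-2.31 and 2.03) and without the filter on low counts (-2.15 and 1.87). With only the deeper libraries, Trdc, Trbc2 and Trdv4 lost their calls, at 1.36, 0.63 and 2.10. Markers of other cell types also had positive interactions past the threshold, namely 3 of 3 fibroblast genes (median 1.72), 2 of 2 endothelial genes (median 0.64), 1 of 3 natural killer cell genes (median 0.84) and 1 of 4 epidermal keratins (Krt14 at 2.70), and their part in the receptor gene results was not tested.

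Among V genes, Trav14d-3-dv8 stood apart from the other Trav genes in level and in every treated group. It lies at chr14:53078452-53079045, and the dv8 in its name marks that it can also join delta chains. Its mean of 36.7 normalized counts over the 32 tumors compared with 4.90 for the next Trav gene, Trav16. Trav16n (3.57), Trav9d-3 and Trav9n-3 (2.58 each) completed the 5 most abundant. Untreated tumors had 0, 10.7 and 19.3 counts of Trav14d-3-dv8 as lowest, median and highest, and ADU-S100 tumors 7.72, 38.5 and 60.6. Anti-LTβR tumors had 9.80, 52.6 and 104, and combination tumors 14.3, 40.0 and 87.4. Hence each treated group had a median above the highest untreated tumor, and all 3 overlapped it at their low ends. It rose with anti-LTβR (log2 change 2.42, SE 0.58, limma adjusted p = 0.014) and with combination therapy (2.15, SE 0.55, limma adjusted p = 0.0048), and the ADU-S100 difference of 1.88 did not pass. Between combination and anti-LTβR tumors the log2 difference was -0.27 (SE 0.47, limma adjusted p = 0.71), which did not pass the test.

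Trav usage was less even in the treated groups as long as this gene was counted. Trav14d-3-dv8 was the highest Trav gene in 28 of 32 tumors, and Trav16n in 3 and Trav7-6 in 1 of the others. Its mean share of summed Trav counts was 16.4% ± 9.97 without treatment, 36.5% ± 15.96 after ADU-S100, 40.9% ± 21.5 after anti-LTβR and 31.1% ± 13.8 after both agents (SD, n = 8), and the largest was 64.4%. Evenness runs from near 0, when a gene takes nearly all counts, to 1, when all detected genes have equal shares. Mean Trav evenness was 0.854 ± 0.0775 without treatment, 0.743 ± 0.122 after ADU-S100, 0.686 ± 0.171 after anti-LTβR and 0.782 ± 0.101 after both agents. Without Trav14d-3-dv8 the order was no longer seen, since the means were 0.897, 0.915, 0.931 and 0.930.

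More Trav genes were detected in combination tumors, and this depended on the number of reads. Genes at 1 normalized count or more numbered, of 76, 20.8 ± 9.25 without treatment, 18.5 ± 5.73 after ADU-S100, 22.6 ± 7.23 after anti-LTβR and 28.4 ± 8.21 after both agents. With each tumor reduced to 38 Trav reads, the expected numbers were 19.5, 16.8, 16.3 and 19.7. The lower counts of the remaining Trav genes leave little to compare. Without the low-count filter, 2 other Trav genes passed limma for combination against untreated tumors, Trav8d-2 with 0.87 and Trav13-2 with -0.83 on the log2 scale (adjusted p = 0.041 and 0.021). Trav1, whose V region forms the alpha chain of MAIT cells, averaged 0.728 counts, reached 1 in 9 of 32 tumors and did not pass in that fit (-0.04, limma adjusted p = 0.94). Trav11 and Trav11d, which serve natural killer T cells, were not analysed here.

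**Figure D3:**
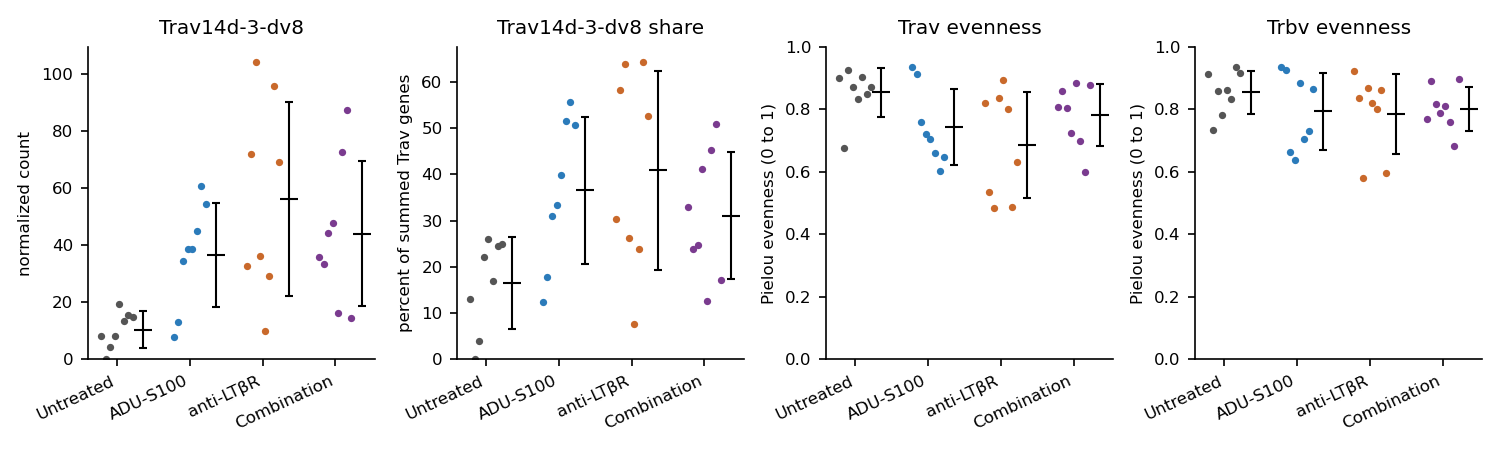
Normalized count of Trav14d-3-dv8, its percent of the summed Trav counts, Trav evenness and Trbv evenness (y axes) in the 4 groups (x axes), with 1 point per tumor and bars for mean ± SD (n = 8). Each treated group holds tumors whose Trav14d-3-dv8 share is above the highest untreated share of 25.9%, and the lowest Trav evenness values are in anti-LTβR tumors.

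The most used Trbv gene differed from tumor to tumor within every group. The 5 Trbv genes with the highest mean counts were Trbv15 (23.9), Trbv3, Trbv4, Trbv19 and Trbv29, and 11 different genes held the largest share in at least 1 of the 32 tumors. Trbv4 did so in 10 tumors, Trbv15 in 5, and Trbv3 and Trbv19 in 4 each. Within groups the counts of these genes spread widely. Counts of Trbv4 lay between 3.01 and 65.4 without treatment and between 4.82 and 32.1 after both agents, with medians of 8.11 and 8.43. Trbv19 had medians of 3.99 without treatment, 7.95 after ADU-S100, 10.9 after anti-LTβR and 15.7 after both agents, with a highest count of 27.1 in untreated and 80.6 in combination tumors. For Trbv3 the medians were 10.01 and 15.7 in untreated and combination tumors, and for Trbv29 they were 9.99 and 6.07, and both genes overlapped between the groups. The largest share in a tumor was 63.1% (Trbv29 in anti-LTβR tumor 3). Trbv15 held 56.3% in anti-LTβR tumor 8, and Trbv14 56.7% in ADU-S100 tumor 4. Pairs of tumors of the same group shared a median of 50.8% of Trbv usage (112 pairs) and pairs of different groups 51.9% (384 pairs), and the corresponding Trav values were 45.9% and 43.1%.

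**Figure D4:**
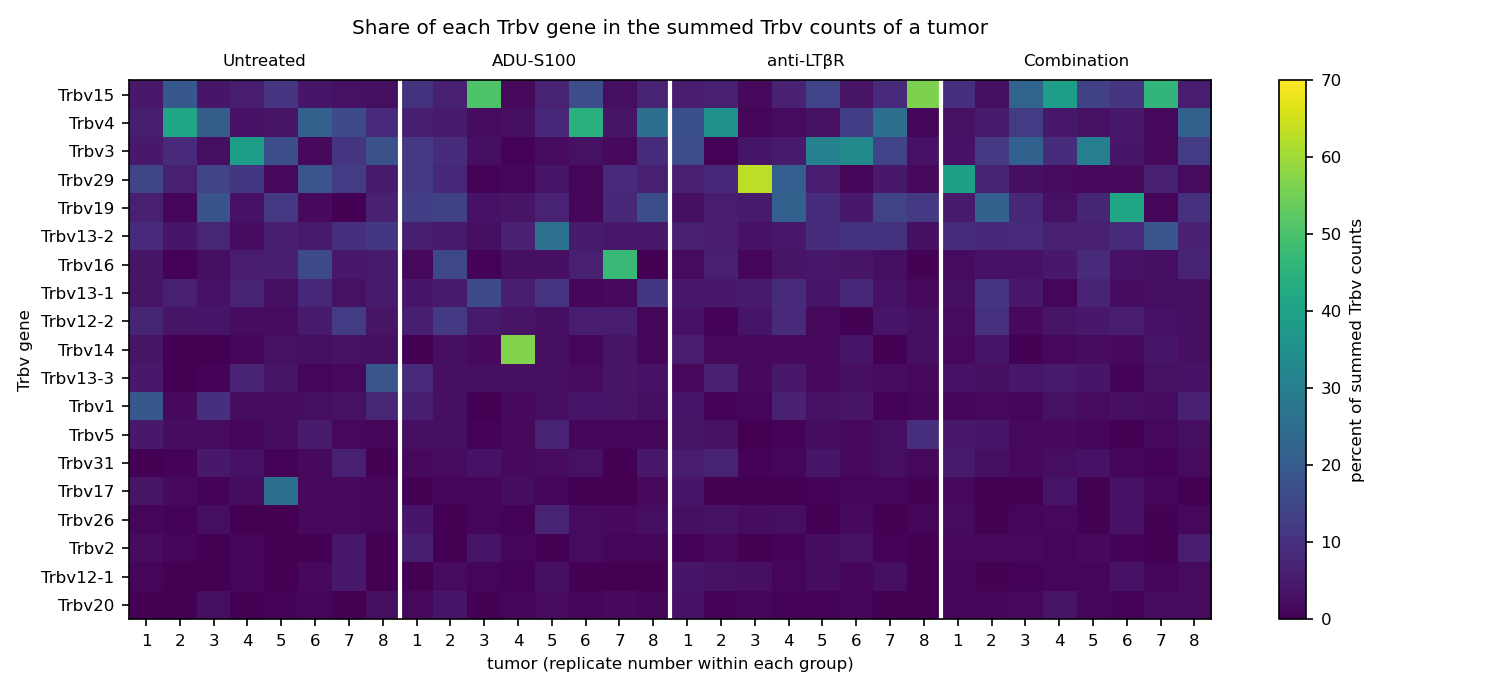
Percent of the summed Trbv counts held by each of 19 Trbv genes (rows) in each tumor (columns, 8 per group, replicate numbers on the x axis), on a color scale from 0 to 70%. High shares fall on different genes in different tumors, up to 63.1% for Trbv29 in anti-LTβR tumor 3, with no gene that is high throughout a group.

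Trbv15 and Trbv13-2 passed the test in combination against untreated tumors. Trbv15 had 1.97, 5.29 and 30.7 counts as lowest, median and highest in untreated tumors and 4.88, 27.3 and 139 in combination tumors, with a log2 change of 1.98 (SE 0.64, limma adjusted p = 0.020). This call was lost with only the deeper libraries, where the change was 1.97. Trbv13-2 went from 2.01, 7.03 and 11.2 to 8.59, 15.9 and 56.5 and rose by 1.25 (SE 0.34, limma adjusted p = 0.0073). Both groups overlapped at both genes. Trbv3 did not pass (0.82, SE 0.60, limma adjusted p = 0.28), and Trbv4, Trbv19 and Trbv29 failed the filter in this comparison. Without the filter Trbv12-1 and Trbv20 also passed, with 1.16 and 1.23 on the log2 scale (limma adjusted p = 0.022 for each). Trbv evenness was, in the same order of groups, 0.855 ± 0.0698, 0.794 ± 0.122, 0.786 ± 0.128 and 0.802 ± 0.0709, with overlap. The mean number of Trbv genes detected was 15.1 in untreated and 17.9 of 19 in combination tumors, but with each tumor reduced to 64 Trbv reads the means were 15.0 and 15.1.

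The V genes of γδ receptors with the clearest differences were Trdv4 and Trgv6. The lowest, median and highest counts of Trdv4 were 0, 5.44 and 12.3 in untreated tumors and 0, 3.47 and 8.48 after ADU-S100. They were 1.92, 4.23 and 8.29 after anti-LTβR and 6.34, 13.1 and 27.0 after both agents. Its log2 change between combination and untreated tumors was 1.39 (SE 0.46, limma adjusted p = 0.022), which became 1.32 and no longer passed with only the deeper libraries. Trgv6 reached 1 count in 3 untreated, 4 ADU-S100 and 2 anti-LTβR tumors and in all 8 combination tumors. Its lowest, median and highest counts were 0, 0.492 and 5.73 in untreated tumors and 0, 1.47 and 4.39 after ADU-S100. They were 0, 0 and 8.63 after anti-LTβR and 1.95, 6.51 and 12.5 after both agents, with overlap at low values. It failed the filter, and without the filter its log2 change was 1.83 against untreated, 2.03 against anti-LTβR and 1.45 against ADU-S100 tumors (limma adjusted p = 0.0067, 0.0093 and 0.0070). At a few reads per tumor these values carry a large counting error.

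The other γδ V genes showed less. Trgv2, the most abundant at a mean of 11.3 counts, had a median of 5.11 without treatment, 7.19 after ADU-S100, 17.9 after anti-LTβR and 13.6 after both agents. Its log2 difference was 1.09 with anti-LTβR and 0.85 with combination therapy, and neither passed (limma adjusted p = 0.068 and 0.077). The first passed with all 4 groups in 1 fit and without untreated tumor 3 or anti-LTβR tumor 1, and the second without untreated tumor 3 or combination tumor 1. Trgv4 (2.02 counts) and Trgv1 (1.41) were low, and Trgv5, which is known from epidermal γδ T cells, averaged 0.775 over all tumors and reached 1 in 4 untreated and 3 combination tumors. Trgv3, Trgv7, Trdv5 and Trdv2-2 averaged below 1. Of 2 markers of type 17 γδ T cells given here, the kinase gene Blk rose by 1.56 in combination against untreated tumors (limma adjusted p = 5.4e-05). Sox13 did not pass (-0.32, limma adjusted p = 0.067), and Cd163l1 was not analysed here. Blk is also known from B cells.

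**Figure D5:**
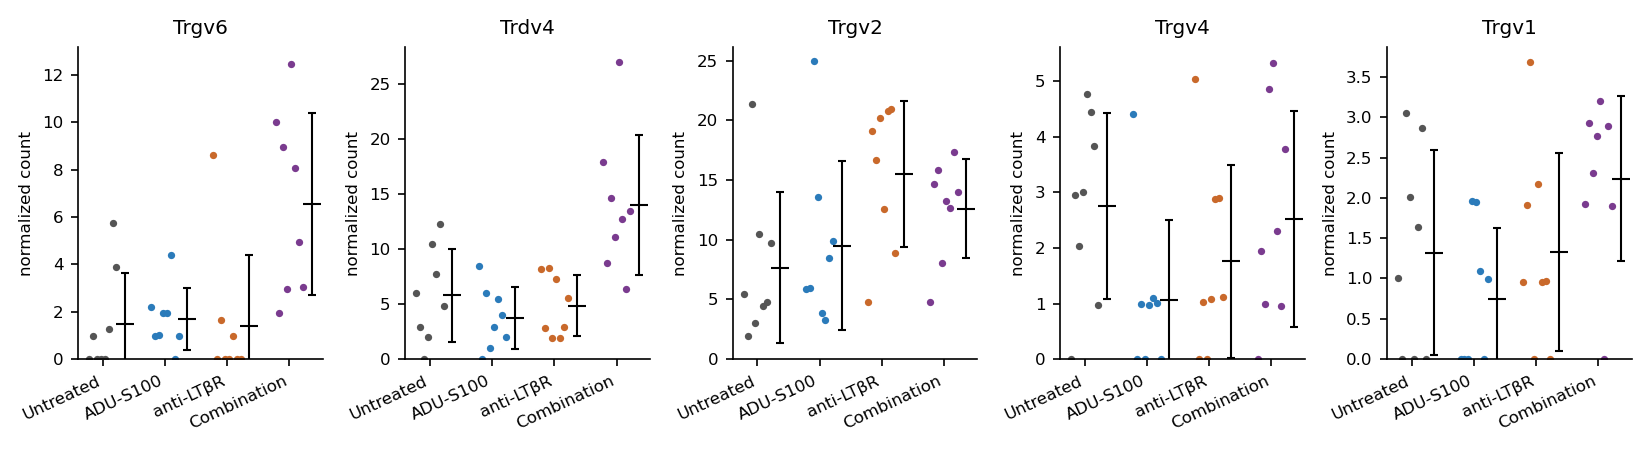
Normalized counts of Trgv6, Trdv4, Trgv2, Trgv4 and Trgv1 (1 panel each, y axes from 0) in the 4 groups (x axes), with 1 point per tumor and bars for mean ± SD (n = 8, cut off at 0). All 8 combination tumors have at least 1.95 counts of Trgv6 and at least 6.34 of Trdv4, while the other groups reach down to 0 for Trgv6.

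The other genes of the receptor complex moved with the αβ constant genes. CD3 and zeta chains carry the signal of the receptor, and all 4 (Cd3d, Cd3e, Cd3g, Cd247) rose in combination against untreated tumors, with a median log2 change of 0.81. All 3 coreceptor genes rose (median 0.89), from Cd8b1 at 0.79 to Cd4 at 1.16, and so did all 13 genes of proximal signaling, from Fyn at 0.22 to Cd28 at 1.36, where 19.6% of all genes tested rose. With anti-LTβR these counts were 1 of 4, 1 of 3 and 6 of 13, beside 7.21% of all genes, and with ADU-S100 none passed, of these or of all genes tested (0%). The ratio of αβ constant counts to counts of Cd3d, Cd3e and Cd3g was 0.947 ± 0.121 without treatment, 0.862 ± 0.0477 after ADU-S100, 0.870 ± 0.0800 after anti-LTβR and 1.00 ± 0.0790 after both agents (SD, n = 8), and all groups overlapped. The genes of receptor recombination and the pre-receptor (Rag1, Rag2, Dntt and Ptcra) failed the filter, with sums of 2.95 to 16.1 in untreated and 5.33 to 49.1 in combination tumors.

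Markers of other cell types moved in the same comparison, and their part in the receptor gene results was not tested. In combination against untreated tumors 3 of 4 B cell markers rose (sums of 70.7 to 246 in untreated and 141 to 705 in combination tumors), as did 3 of 3 fibroblast markers (sums of 56802 to 91204 and 97779 to 362276), 3 of 3 macrophage markers (4711 to 7379 and 7115 to 11325) and 2 of 2 endothelial markers (882 to 1264 and 1464 to 1981). Of 4 epithelial markers 3 fell, with sums of 15330 to 28517 and 6703 to 13991. None of 3 natural killer cell markers passed the test (77.0 to 149 and 97.5 to 202), and none of 4 epidermal keratins (2287 to 35309 and 1327 to 53108). Of 4 lymph node stroma markers 3 were tested, of which Ccl21a rose by 1.93 on the log2 scale, and Ccl19 and Cxcl13 did not pass, with differences of 0.57 and -0.96 (limma adjusted p = 0.15 and 0.073). The sums of the 4 were 226 to 766 and 1007 to 2143. Against anti-LTβR tumors Cxcl13 fell (-1.09, limma adjusted p = 0.035). Of 3 neutrophil markers 1, Csf3r, rose (1810 to 6742 and 3199 to 18530).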

How the data were processed

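Poly(A) RNA of 32 individual tumors was sequenced with a stranded kit in paired ends, and the strand setting of the counting is not given in the sources used here. The signal values that the authors deposited are read counts that were scaled with 1 factor for each library, with reads split among near-identical genes. The methods name HISAT2 and StringTie and the submitters' processing notes also STAR and Partek, with build mm39, and which of them made each table was not settled. A larger table of 52 libraries that the authors deposited holds a signal of the same kind in whole multiples of the worth of 1 read, from which whole reads were recovered (100.0% of values within 0.05 of a whole number, below 10000 reads). Per-sample columns left unused number 0. The authors' own gene set results were not used.

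Groups come from the sample labels. Each pair of groups was compared with limma 3.58.1 (trend test) on log2(value + 1) over all genes passing edgeR 4.0.16 filterByExpr (minimum 10), with Benjamini-Hochberg adjustment over all genes tested and a threshold of 0.05, and the interaction was fitted on all 32 tumors. A log2 change of values with a pseudocount of 1 understates the change of low genes. Sums, genes detected (at least 1), rarefied numbers and Pielou evenness were described without a test. Named genes are all constant genes, the 5 Trav, 5 Trbv and 3 γδ V genes with the highest means, V genes with a known role and any gene passing a test. Genes named from the fit without the filter were chosen after their values were seen. The members and gene lists were chosen with earlier results of these data known. Alternatives were edgeR and DESeq2 1.42.0 on recovered reads, no filter, a mean of at least 5, a pseudocount of 0.5, the replicate number as a block, all 4 groups in 1 fit, and each tumor left out. Added after seeing the data were only libraries above 14000000 recovered reads (called the deeper libraries, which leaves out 7 tumors) and Trav evenness without Trav14d-3-dv8. On simulated counts for combination against untreated tumors with a log2 change of 1.5, limma recovered 199 of 200 changed genes, with 12 false calls over 15835 genes. The changed genes were drawn only from those above a minimum mean of reads, and all genes had the same dispersion. The recovery therefore does not describe receptor genes with few reads, a wide spread or a smaller change. Positions and sequences are those of GENCODE for GRCm38, not of the files' build. Intervals and tests cover the spread between tumors of this experiment. Some items of the gene lists and labels are not reported here.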

Additional observations from a re-analysis of the deposited data

Results flagged for a closer look

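Of 100 combinations of a treatment group and a receptor gene measure, 15 held a tumor that lay far from the other 7 by Dixon's criterion. Chance gives about 5% for independent, normally distributed values. Several measures here are low counts, and some genes lie within a sum that was also examined. That share therefore gives no number to set beside the 15. Trbv genes gave 8 of the 15, plus the summed Trbv counts. Trbv15 reached 89.3 normalized counts in ADU-S100 tumor 3, 133 in anti-LTβR tumor 8 and 139 in combination tumor 7. Trbv29 reached 102 in anti-LTβR tumor 3 and 75.5 in combination tumor 1, and Trbv4 reached 65.4 in untreated tumor 2. Trbv13-2 was at 26.6 in ADU-S100 tumor 5 and at 56.5 in combination tumor 7, which also stood out for Trbv15. The summed Trbv counts of anti-LTβR tumor 8 were 237.

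Among γδ genes, Trdc was at 66.6 in anti-LTβR tumor 1, which also had the outlying Trgv6 count of 8.63. Trgc4 was at 12.7 in ADU-S100 tumor 5 and at 16.7 in anti-LTβR tumor 8, and Trgv2 at 21.4 in untreated tumor 3. Trav evenness was 0.677 in untreated tumor 2, the lowest of that group.

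For 5 genes the effect of 1 agonist differed with the other agonist by limma's interaction test over 32 tumors. The interaction was 2.17 for Trgc1, 1.39 for Trdc, 0.65 for Trbc2, 1.87 for Trdv4 and -2.15 for Trav14d-3-dv8 on the log2 scale. Trav14d-3-dv8 lost its call in 20 and Trdv4 in 19 of 32 fits that each left out a tumor, and both lost it with a pseudocount of 0.5 and without the filter on low counts. Trdc, Trbc2 and Trdv4 lost theirs with only the deeper libraries.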

How the results depend on the processing

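Of 137 values recomputed for group counts and summaries under other settings than leaving out a tumor, 116 moved little. For a summary this means by less than the SD of the treated group, whatever its direction. At a fixed number of reads, Trav genes detected with anti-LTβR went from 1.88 above the untreated mean to -3.25. The Trbv difference went from 1.00 to -0.361 with anti-LTβR and from 0.625 to -0.0451 with ADU-S100. Of 504 values for single genes, 480 kept direction and call. Without the filter on low counts, the receptor genes called went from 9 to 14 for combination against untreated, from 3 to 8 against anti-LTβR and from 6 to 17 against ADU-S100 tumors, with all 113 tested, beside 7438 of 27521, 3851 of 27505 and 7901 of 27524 of all genes. DESeq2 called 5 against anti-LTβR, and 1 for anti-LTβR against ADU-S100, beside 4373 of 15771 and 1636 of 15467 of all genes. Same-numbered tumors correlated between -0.55 and 0.63. Pairs numbered 1 all lay between 0.16 and 0.63 and pairs numbered 2 between 0.077 and 0.37, whereas each other number had negative values too. Whether tumors of a number share a batch was not tested. With the number as a block 1 receptor gene was called for anti-LTβR against untreated tumors, beside 1660 of 16691 of all genes. For anti-LTβR against ADU-S100 tumors it was 1, beside 445 of 16649. With only the deeper libraries the counts were 1 for anti-LTβR against untreated and 2 for the interaction, beside 1537 of 16862 and 1568 of 17733. The interaction had 3 with a pseudocount of 0.5, beside 3227 of 17649. The cause was not tested.

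Without Trav14d-3-dv8 the Trav sum was 0.892 times the untreated mean with ADU-S100 and 1.16 times with anti-LTβR. Without Trgv2 the γδ V sum with anti-LTβR was 0.825 times the untreated mean. Mean Trav evenness minus the untreated mean became 0.0181, 0.0342 and 0.0334 with ADU-S100, anti-LTβR and combination therapy without Trav14d-3-dv8, and 0.0117, 0.0287 and 0.0291 without the top gene of each tumor. The difference in Trbv genes detected was -0.75 with ADU-S100 at a minimum of 5 counts and 0.150 with combination therapy at a fixed number of reads.

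Leaving out each tumor in turn, the count was 3 to 5 for combination against anti-LTβR tumors (5 without combination 4 or 8), 0 to 1 for anti-LTβR against ADU-S100 (1 without ADU-S100 4 or 8 or anti-LTβR 1) and 3 to 5 for the interaction (3 without untreated 1, ADU-S100 4, 5 or 8, anti-LTβR 2 or 7, or combination 3 or 5). Log2 differences that changed sign, none of them called, were those of Trgc2 with ADU-S100 (-0.046 to 0.22), in combination against anti-LTβR (-0.093 to 0.18) and in the interaction (-0.20 to 0.095), and of Trdc with ADU-S100 (-0.26 to 0.029) and anti-LTβR (-0.10 to 0.20). Depth limits what can be said of Trgv6 and most Trav genes, which had few reads.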

Other observations

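Another 20 libraries of a separate experiment were not used in any comparison, since 15 have labels that contradict each other and 5 carry the combination label alone. In RPM of recovered reads, the summed receptor constant genes in the 5 combination libraries had a lowest value of 77.7, a median of 116 and a highest of 202, and in the 15 unassigned libraries 26.9, 59.0 and 320. The 8 combination tumors of the main experiment gave 41.9, 50.8 and 64.5 on this scale. Trav14d-3-dv8 was the highest Trav gene in 5 of 5 and in 12 of 15 of these libraries, with median shares of the Trav reads of 24.8% and 37.7%.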
